A study of Drosophila melanogaster with 15 samples.

Results

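The 38 genes described here encode proteins of the synaptic vesicle cycle, the active zone and the growth of the presynaptic terminal of Drosophila neurons. They were taken by gene symbol from the 6 deposited lists of sites and regions, and 31 of the 38 were named in at least 1 list, out of 7766 genes named in all. The lists came from ChIP-seq of nuclei of the mushroom bodies (MBs), the insect brain centre for olfactory memory. The nuclei carried a nuclear-envelope tag (FLAG-KASH) driven by MBp-LexA, which is strong in the α/β and γ lobes and weak in the α'/β' lobes, and were taken from pooled flies of both sexes, labelled as strain CS10. The samples were 3 libraries of flies 1 day after spaced training (repeated pairing of an odor with electric shocks, with rest intervals) and 3 libraries of naive flies for each of the acetylated histone marks H3K9Ac and H4K16Ac, 1 CREB and 1 CRTC library of spaced-trained flies, and 1 input library of naive flies.

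At a chemical synapse, vesicles loaded by transporters dock at the active zone, fuse with the plasma membrane through SNARE proteins when calcium sensors detect calcium entry, and are then retrieved by endocytosis. CREB is a DNA-binding transcription factor that is needed for long-term memory, and CRTC is a coactivator that binds CREB. Acetylation of lysines on histones H3 and H4 is commonly found at the promoters of active genes.

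The lists give positions on the dm3 build, the gene named for each row, and a score or enrichment factor. They hold no value per library and no depth, so the precision of single values is unknown and CREB and CRTC have no replicate check. A peak in such a list cannot tell a mark on more nuclei from more of the mark per nucleus. Of 9 marker genes of MB neurons, 6 had an H3K9Ac peak (66.7%, against 65.7% of the 7735 other named genes). An H4K16Ac peak was named for 5 (55.6%, against 76.1%), and sNPF and prt were in no list. Of 5 markers of all neurons, which include Syt1 and n-syb, 3 had peaks of each mark (60.0%). Of these, futsch had no peak and para was in no list. Of 6 glial markers, 2 had an H3K9Ac peak and 2 had an H4K16Ac peak, and repo, gcm and alrm were in no list. Of 5 photoreceptor markers, 0 had an H3K9Ac peak and 1 had an H4K16Ac peak. Among 4 muscle markers, 1 had peaks of both marks. Their part in the results below was not tested.

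CREB sites were named for 17 of the 38 synaptic genes (44.7%), against 32.6% of the 7735 other named genes. CRTC sites were named for 12 synaptic genes (31.6%), against 21.4% of the other genes. A CREB/CRTC site was counted where CRTC and CREB sites were at most 200 bp apart, with the gene of the CRTC site. It was named for 11 synaptic genes (28.9%), against 17.9% of the other genes. The other genes are by definition in at least 1 list. Over the 31 synaptic genes that are also in a list, the shares were 54.8% for CREB, 38.7% for CRTC and 35.5% for CREB/CRTC. These shares and those below are descriptions of gene lists, and no test was applied to them.

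Peaks of H3K9Ac were named for 26 synaptic genes (68.4%), against 65.7% of the other genes, and peaks of H4K16Ac for 24 (63.2%), against 76.1%. Over the 31 listed synaptic genes the shares were 83.9% for H3K9Ac and 77.4% for H4K16Ac, so the H4K16Ac share lay below or near that of the other genes, depending on whether the 7 unlisted genes were counted. Peaks of both marks were named for 22 synaptic genes. Only H3K9Ac peaks were named for 4 (brp, Syt4, Snap25 and stnB), only H4K16Ac peaks for 2 (comt and hiw), and neither for 10. The 10 include Rim, although H3K9Ac peaks without a gene name lay in its increased region, as described below.

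The lists of increased regions hold 400 bp regions with more of a mark in spaced-trained flies than in naive flies. These calls were taken as deposited and were not retested. In this form they number 1889 rows for H3K9Ac and 1428 rows for H4K16Ac. The paper reports fewer increased regions for each mark, so the deposited lists may differ from its calls. How far the shares below depend on this was not tested. The increased H3K9Ac list named 15 synaptic genes (39.5%), against 22.6% of the other genes. Counted among genes of the H3K9Ac peak table, 14 of 26 synaptic genes (53.8%) were in the increased list, against 30.1% of the other genes. The increased H4K16Ac list named 8 synaptic genes (21.1%), against 16.9% of the other genes, or 8 of 24 (33.3%) within the H4K16Ac peak table, against 19.6%. In all, 19 synaptic genes (50.0%) were in either increased list, against 33.9% of the other genes, and 4 (10.5%) were in both, against 5.65%.

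**Figure D1:**
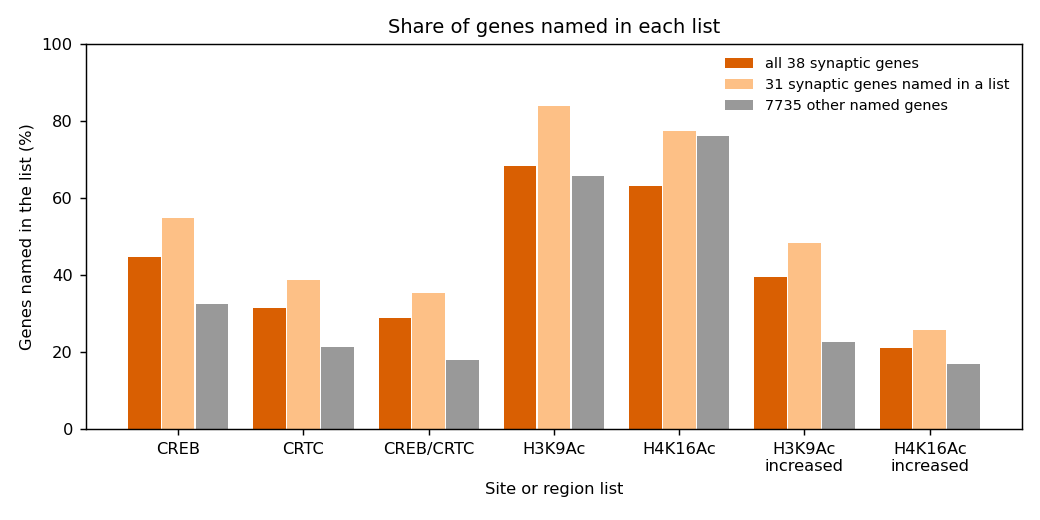
Percentage of genes named in each list (y axis) for the CREB, CRTC and CREB/CRTC sites, the H3K9Ac and H4K16Ac peaks and the increased regions of both marks (x axis). Bars stand for all 38 synaptic genes, the 31 of them named in a list, and the 7735 other named genes. The widest gap between all 38 synaptic genes and the other genes is in the increased H3K9Ac list (39.5% and 22.6%), and for H4K16Ac peaks the synaptic genes lie below the other genes (63.2% and 76.1%).

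The groups by role are small, and their counts are given beside the shares of other named genes. Of the 8 genes of the SNARE fusion machinery, 7 had H3K9Ac peaks (87.5%, against 65.7%) and 6 were in the increased H3K9Ac list (75.0%, against 22.6%). The 6 include Rop, whose increased region overlaps peaks that are also named for a neighbouring gene. Of the 8 endocytic genes, 7 had H3K9Ac peaks (87.5%) and 2 were in that increased list (25.0%). Of the 5 calcium sensor genes, 3 had H3K9Ac peaks (60.0%). Of the 6 active zone genes, 4 had a CREB site (66.7%, against 32.6%) and 1, unc-13, had a CREB/CRTC site (16.7%, against 17.9%). Of the 5 genes for vesicle proteins and transporters, 2 had a CREB/CRTC site, against 17.9% of other named genes.

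**Figure D2:**
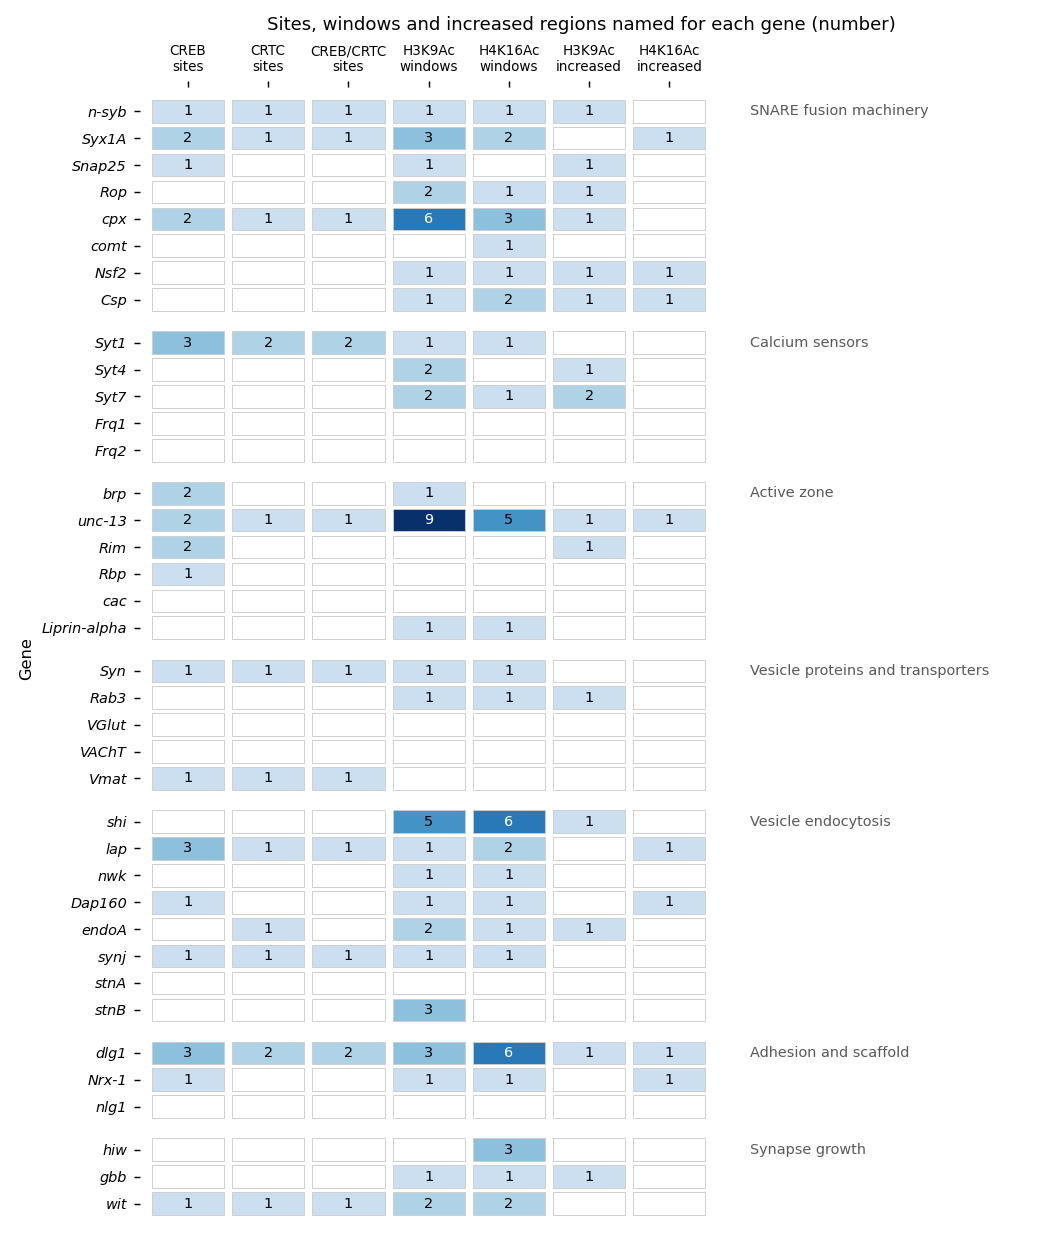
Numbers of CREB, CRTC and CREB/CRTC sites, of non-overlapping 400 bp peak windows of each mark, and of increased regions (columns) for each of the 38 synaptic genes (rows, grouped by role); empty cells are genes not named. unc-13 has the most H3K9Ac windows (9), shi and dlg1 have the most H4K16Ac windows (6 each), and 7 rows are empty throughout.

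The vesicle SNARE n-syb (neuronal synaptobrevin), which pairs with target-membrane SNAREs to drive fusion, had one of the highest H3K9Ac scores of the 38 genes. Its peak in an intron, 177 bp from the transcription start site (TSS), scored 7.98, which ranked 147 among genes by their highest H3K9Ac score. The score is the value of the PICS peak caller and has no fixed range. Its H4K16Ac peak scored 1.33, higher than only 7.61% of genes. n-syb was in the increased H3K9Ac list, and its CREB/CRTC site (enrichment factor 5.65 for CREB and 5.88 for CRTC) lay 250 bp from that region. The enrichment factor is the ratio between ChIP and background reads, as given by the ERD algorithm.

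Syx1A, the target-membrane SNARE syntaxin, had a CREB site of 6.23 and a CRTC site of 4.51 that overlapped each other, 754 and 728 bp into the gene. A second CREB site (4.19) stood at -437 bp, where a minus sign marks a position upstream of the TSS, and its nearest CRTC site was 1166 bp away. This upstream site lay inside the increased H4K16Ac region of Syx1A, while the CREB/CRTC site was 952 bp away. Snap25, the partner SNARE, had a CREB site of 4.40 at 57455 bp from the TSS, and its increased H3K9Ac region was 57194 bp from that site. Its H3K9Ac peak scored 3.37 and covered an intron near the TSS.

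cpx (complexin), which clamps and promotes SNARE-driven fusion, had 6 H3K9Ac windows with scores between 1.32 and 3.88, and 3 H4K16Ac windows with scores between 1.49 and 2.67. Its CREB/CRTC site stood at -316 bp from the TSS given for that site. From the TSS used for the peaks, the site lay between H3K9Ac windows at 433 and 2030 bp. It was weak, with 4.15 for CREB and 2.26 for CRTC, the CRTC factor being higher than only 1.60% of CRTC sites. The increased H3K9Ac region of cpx lay 687 bp from that site and was centred on a weak peak of 0.84. The Munc18 homologue Rop, which binds syntaxin, had low scores of 1.98 for H3K9Ac and 0.89 for H4K16Ac. Rop was in the increased H3K9Ac list, with a region centred on a weaker peak of 0.936. The peaks are also named for the neighbouring gene Ras64B, so that neither they nor the region can be assigned to Rop alone.

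The genes that recycle SNAREs or act as their chaperones had no CREB or CRTC site. Nsf2, which encodes an ATPase that takes SNARE complexes apart, and Csp, a vesicle chaperone, were in both increased lists. For Nsf2 the H3K9Ac and H4K16Ac regions were 276 bp apart, and for Csp they were 330 bp apart. The nearest CREB/CRTC sites were 21969 bp or more from the Nsf2 regions and 131014 bp or more from the Csp regions. comt, the other fly gene for this ATPase, had 1 H4K16Ac peak (score 3.17) in coding sequence, found in 1 of the 3 runs of rows, and no H3K9Ac peak.

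Syt1, the calcium sensor for fast release, had 3 CREB and 2 CRTC sites, as many as any of the 38 genes. A pair of CREB sites with 1 shared factor of 7.30 overlapped a pair of CRTC sites of 6.29 at 870 to 1025 bp into the gene, on chromosome arm 2L. The remaining CREB site (2.57, the lowest factor of the 28 CREB sites) lay at 5074 bp. Peaks of H3K9Ac (4.11) and H4K16Ac (2.69) stood at 572 and 516 bp from the TSS, and Syt1 was in neither increased list.

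Syt4 and Syt7, the other synaptotagmins among the 38 genes, had increased H3K9Ac regions and no CREB or CRTC site. Syt7, a slower, high-affinity calcium sensor, had the highest H3K9Ac score in rows named for any of the 38 genes (8.50, rank 126). It had 2 increased H3K9Ac regions on chromosome 4. Both overlapped peaks annotated as intronic, and they lay 119 and 0 bp from the TSS given for the regions. One of these regions is centred on the peak of 8.50. Syt4, which acts in retrograde and dense-core vesicle signalling, had H3K9Ac scores of 3.99 and 1.26, and its increased region was centred on the weaker peak. The stronger peak is also named for the neighbouring gene Gld and cannot be assigned to Syt4 alone. The calcium-binding frequenins Frq1 and Frq2 were in no list.

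unc-13, on chromosome 4 like Syt7, encodes a protein that primes vesicles at the active zone. It carried the most H3K9Ac windows (9, with scores between 2.68 and 8.45) and 5 H4K16Ac windows. It was in both increased lists, but at separate places, 10702 bp apart. The H3K9Ac region overlapped a peak annotated as intronic, but stood at -46 bp from the TSS given for the region. It is centred on a peak of 2.77 found in 1 run, next to the strongest peak of 8.45. The H4K16Ac region lay at the upstream end of the gene. The H4K16Ac region contained 1 CREB site (3.26) and was 231 bp from the CREB/CRTC site, whose factors of 3.72 and 2.83 were low among all sites.

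brp (bruchpilot), the ELKS-family scaffold of the active zone, had CREB sites of 4.59 at -195 bp from the TSS and of 6.44 at 2652 bp into the gene. Its only peak of either mark was an H3K9Ac peak of 1.95, 13092 bp into the gene and found in 1 run, and no CRTC site lay within 34118 bp of its CREB sites. Rbp, the RIM-binding protein, had a CREB site of 3.70 at -102 bp from the TSS and no peak of either mark.

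Rim, a scaffold that tethers vesicles and calcium channels, is not named in the peak tables but is in the increased H3K9Ac list. The region (3R, 13741728 to 13742128) overlaps 3 rows of the H3K9Ac peak table that carry no gene name, the highest with a score of 8.58 (rank 238 of 23378 rows). CREB sites of 5.48 and 3.34 lay 24 and 174 bp from the region, and the nearest CRTC site was 27476 bp from it. Liprin-alpha, an active zone organiser, had peaks of 2.34 for H3K9Ac and 1.52 for H4K16Ac near its TSS and was in no other list. cac, the presynaptic calcium channel, was in no list.

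Of the vesicle proteins, Syn (synapsin, which tethers vesicles in the reserve pool) had a CREB site of 8.07 and a CRTC site of 2.48, both at the TSS, beside weak peaks (1.11 for H3K9Ac and 2.06 for H4K16Ac). The transcript named in the 4 peak rows of Syn was not found in the RefSeq table used for names, and without Syn 25 of 37 genes had H3K9Ac and 23 had H4K16Ac peaks. Rab3, a vesicle GTPase, had an H3K9Ac peak of 2.06 and an H4K16Ac peak of 1.80, centred 321 and 314 bp from its TSS. It was in the increased H3K9Ac list, with a region centred on a weaker peak of 0.532, and had no CREB or CRTC site. Among the transporters that fill vesicles, Vmat, which loads monoamines, had a CREB/CRTC site with factors of 9.86 and 6.36. Its CREB row stood at -6761 bp from the TSS, and no peak of either mark was named for Vmat. The next CREB row is named for the gene CG6145 and has the same factor of 9.86, so that this factor cannot be assigned to Vmat alone. VGlut, for glutamate, and VAChT, for acetylcholine, were in no list.

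The endocytic genes included the strongest H4K16Ac peaks of the set. lap, the fly AP180 clathrin adaptor, had an H4K16Ac peak of 6.03 (rank 113, higher than 98.1% of genes) at -66 bp from the TSS. Its 3 CREB sites shared 1 factor of 8.49, its CRTC site had 7.12, and the increased H4K16Ac region at 3R, 3012454 to 3012854, overlapped a CREB site and lay 96 bp from the CREB/CRTC site. No other increased region of the 38 genes, out of 24 in all, came as close as 200 bp to a CREB/CRTC site. An increased H3K9Ac region overlaps the same place but is named for the neighbouring gene CG10055.

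shi, the dynamin that cuts vesicles from the membrane, had 5 H3K9Ac windows with scores of up to 5.12 and 6 H4K16Ac windows of up to 4.89 over its 5' end. It was in the increased H3K9Ac list and had no CREB or CRTC site. Dap160, the intersectin scaffold, had peaks of 4.06 and 3.49 in an intron beside a CREB site of 4.12, which lay 12 bp from its increased H4K16Ac region. The nearest CRTC site was 45166 bp from that region. endoA (endophilin), which curves the membrane, was the only gene of the 38 with a CRTC site (2.96) and no CREB site, and that CRTC site lay inside its increased H3K9Ac region.

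synj (synaptojanin), the phosphatase that helps uncoat vesicles, had a CREB site of 4.44 and a CRTC site of 4.09 at the TSS with peaks of 2.88 and 2.62 there, and was in neither increased list. stnB (stoned B), an endocytic adaptor, had 3 intronic H3K9Ac windows with scores between 2.31 and 5.84 and no H4K16Ac peak. nwk (nervous wreck), an F-BAR protein, had peaks of 1.83 and 1.55 upstream of its TSS. The H4K16Ac peak of nwk is also named for its neighbour Use1, which is the name given in the increased list. stnA, encoded with stnB, was in no list.

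dlg1, the PSD-95 homologue that organises synaptic scaffolds, was in both increased lists, with overlapping regions at its 5' end, where 1 of its 3 H3K9Ac windows is also named for the neighbour Tim8. It had 2 CREB/CRTC sites, one at 4.48 and 3.78 that lay 633 bp from the H3K9Ac region and 350 bp from the H4K16Ac region, and one at 4.21 and 2.94 that lay 20227 bp from the H3K9Ac region by its CREB row. Of its 6 H4K16Ac windows, 5 were annotated as intronic, between 20004 and 30473 bp from the TSS used for the peaks. The CREB site of 4.21 lay 68 bp from the first of these, at -71 bp from the TSS given for that site. Nrx-1 (neurexin), a presynaptic adhesion molecule, had an increased H4K16Ac region with a peak of 2.27, 268 bp from a CREB site of 4.44, and no CRTC site. The neuroligin gene nlg1 was in no list under its own symbol. The CREB list has the name neuroligin, which RefSeq gives as a synonym of all fly neuroligin genes, and it was not assigned to nlg1.

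The growth genes differed among themselves. wit, the type II BMP receptor of motor neuron terminals, had the highest factors of the 38 genes for both CREB (17.7, rank 120 and higher than 97.5% of sites) and CRTC (9.27, rank 169 and higher than 94.4%). The CREB site was at 3L, 4071718 to 4071825, at -1 bp from the TSS, and an H3K9Ac peak of 4.61 followed 409 bp into the gene. wit was in neither increased list. Its BMP ligand gbb showed the reverse, with an increased H3K9Ac region at the TSS (peak score 1.82) and no CREB or CRTC site. hiw (highwire), a ubiquitin ligase that restrains terminal growth, had 3 H4K16Ac windows of 1.60, 2.41 and 2.03 and no other entry.

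Enrichment factors at the synaptic genes had medians below those elsewhere, but within the intervals of the medians. The 28 CREB sites had a median factor of 4.54 (95% interval from 4.19 to 6.44, all sites from 2.57 to 17.7), against 6.17 at sites of other named genes. The 14 CRTC sites had a median of 4.30 (95% interval from 2.83 to 6.36, all sites from 2.26 to 9.27), against 4.67. Several sites can share 1 factor, as in lap and Syt1, so these sites are not independent of each other.

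**Figure D3:**
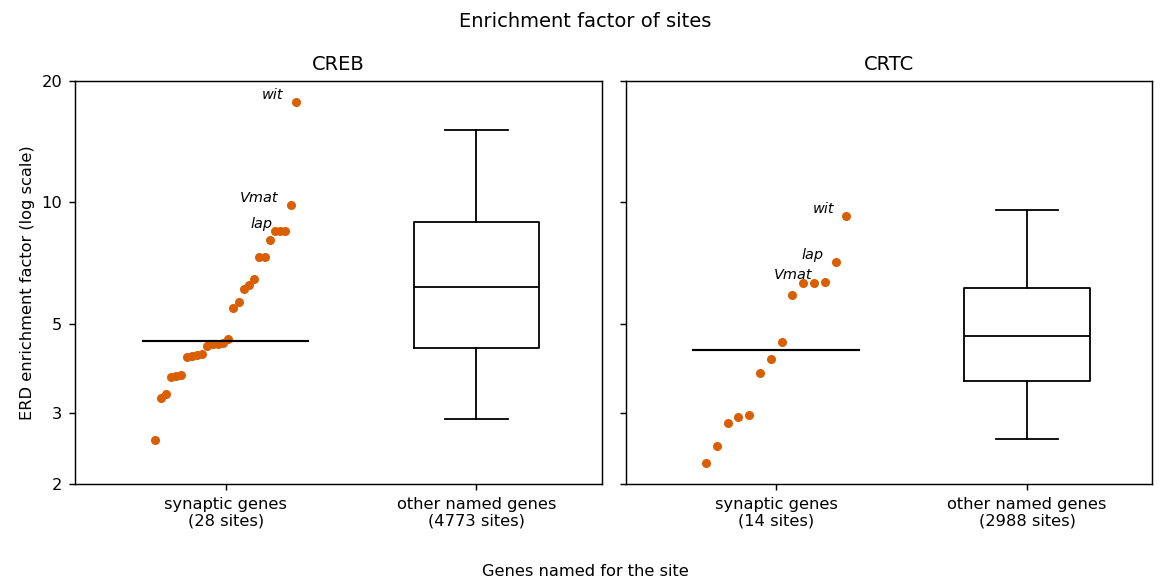
ERD enrichment factor (log scale, y axis) of CREB sites (left panel) and CRTC sites (right panel) of the synaptic genes, each site a point with a line at the median, beside a box plot of the sites of other named genes (quartiles, whiskers from the 5th to the 95th percentile). The median lies at 4.54 for the synaptic genes and 6.17 for the others in CREB, at 4.30 and 4.67 in CRTC, and wit has the highest synaptic site in both.

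Among the 28 CREB sites, 13 (46.4%) had a CRTC site at 200 bp or less, against 52.4% for other named genes, and 15 (53.6%) were within 500 bp of a TSS, against 56.7%. Among the 14 CRTC sites, 13 (92.9%) had a CREB site that close, against 79.6%. The CREB sites fell more often inside an H3K9Ac peak window, 14 of 28 (50.0%) against 28.8%, and so did the CRTC sites, 7 of 14 (50.0%) against 27.7%. For H4K16Ac windows the shares were 35.7% against 29.5% for CREB and 35.7% against 29.2% for CRTC.

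The median H3K9Ac score of the synaptic genes was above that of other genes, and the H4K16Ac medians were nearly equal. The median over their 162 H3K9Ac rows was 2.50 (95% interval from 2.31 to 2.77), against 2.13, and the median of the highest score per gene was 3.37, against 2.77. For H4K16Ac the 115 rows had a median of 1.92 (1.70 to 2.09), against 1.91, and the highest score per gene had a median of 2.60, against 2.47. The intervals come from the ranks of the rows, and they are too narrow because the 3 runs repeat the same peaks. A peak in all 3 runs of rows was found for 21 of 26 genes (80.8%) with H3K9Ac, against 63.2%, and for 13 of 24 (54.2%) with H4K16Ac, against 53.4%.

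**Figure D4:**
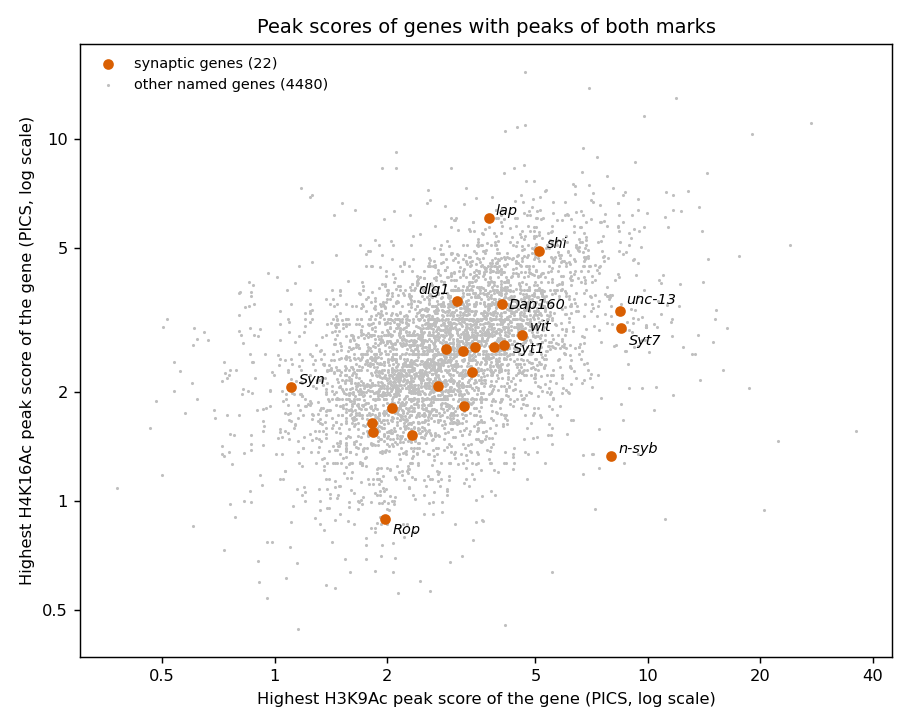
Highest H3K9Ac score of a gene (x axis) against its highest H4K16Ac score (y axis), both PICS scores on log scales, for the 22 synaptic genes with peaks of both marks (large points) and the other named genes with both (small points). Most synaptic genes lie within the cloud. Among the synaptic genes, Syt7 (8.50), unc-13 (8.45) and n-syb (7.98) lie farthest to the right and lap (6.03) lies highest, while some other named genes score higher. Syt7 and unc-13 are the 2 synaptic genes on chromosome 4, and they were not compared with other genes of that chromosome.

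The windows of the synaptic genes were more often intronic and less often coding than those of other genes, as a description without a test. Introns and distances here refer to the longest transcript named for each peak, so other start sites of a gene are not taken into account. Of the 54 non-overlapping H3K9Ac windows, 27 (50.0%) lay in an intron alone, against 33.9% for other named genes, and 5 (9.26%) touched coding sequence, against 28.5%. Without unc-13, cpx and shi, which hold many windows, the intronic share was 47.1%. For the 46 H4K16Ac windows the intronic share was 39.1%, against 31.4%, and coding sequence was touched by 21.7%, against 31.8%. By gene, an intronic H3K9Ac window occurred in 15 of 26 synaptic genes (57.7%), against 30.0% of other genes. Windows within 500 bp of a TSS made up 63.0% for H3K9Ac, against 68.8%, and 50.0% for H4K16Ac, against 63.0%, but the direction rested on a few genes. Without unc-13 the shares were 71.1% for H3K9Ac and 53.7% for H4K16Ac, and without unc-13, cpx and shi they were 79.4% and 65.6%. On the X chromosome, which holds 9 of the 38 genes, 3 genes had H3K9Ac peaks in 11 windows and 4 had H4K16Ac peaks in 16 windows, 12 of them in shi and dlg1. Of the 29 genes on the other arms, 23 had H3K9Ac peaks in 43 windows and 20 had H4K16Ac peaks in 30 windows. In flies H4K16Ac is the mark that the dosage compensation complex places along the male X chromosome, and these nuclei came from both sexes. No share for other X-linked genes was computed, and a link between these counts and dosage compensation was not tested.

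Increased regions near CREB/CRTC sites were few, both at the 38 genes and at other genes. Of the 38 genes, 6 (15.8%) had a CREB/CRTC site and an increased region of either mark, against 6.76% of the other genes: n-syb, Syx1A, unc-13, cpx, lap and dlg1. Of the 16 increased H3K9Ac regions of the 38 genes, 0 came within 200 bp of CREB/CRTC sites, against 10.6% for other genes. Of the 8 increased H4K16Ac regions 1 did so (12.5%), against 15.6%. The regions next in distance were those of unc-13 (H4K16Ac, 231 bp), n-syb (H3K9Ac, 250 bp) and dlg1 (H4K16Ac, 350 bp), just past the limit. An H4K16Ac window overlapped 10 of the 16 H3K9Ac regions (62.5%), against 80.9%, and an H3K9Ac window overlapped 8 of the 8 H4K16Ac regions, against 74.5%.

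**Figure D5:**
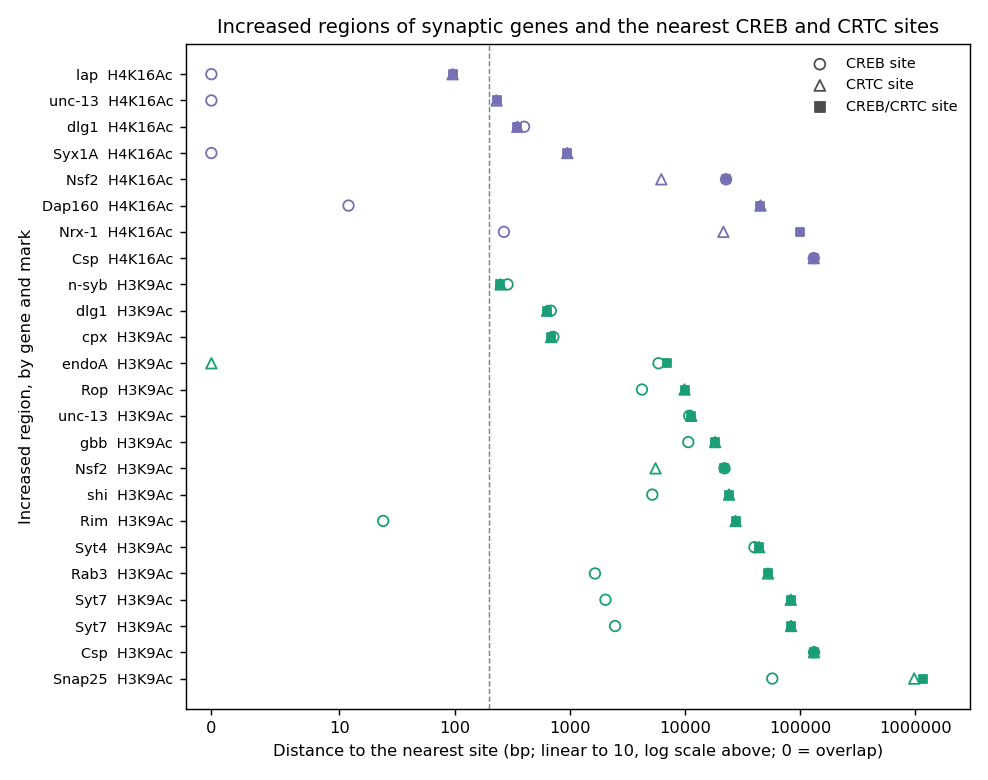
Distance in bp (x axis, linear up to 10 and log scale above) from each of the 24 increased regions of the synaptic genes (rows, H3K9Ac below H4K16Ac) to the nearest CREB site (circles), CRTC site (triangles) and CREB/CRTC site (filled squares) of any gene. The dashed line marks 200 bp, and lap alone has a filled square left of it; a CREB site overlaps the H4K16Ac regions of lap, unc-13 and Syx1A, and a CRTC site the H3K9Ac region of endoA.

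The lists also name other genes of the same pathways. Of 39 further synaptic vesicle and active zone genes, 31 were named in a list. Of the 39, 26 had H3K9Ac and 26 had H4K16Ac peaks (66.7% each, against 65.7% and 76.1% of the other named genes), 13 had a CREB site (33.3%, against 32.6%) and 6 had a CREB/CRTC site (15.4%, against 17.9%). The increased lists held 14 of them for H3K9Ac (35.9%, against 22.6%) and 9 for H4K16Ac (23.1%, against 16.9%). Both a CREB/CRTC site and an increased region were found for 5 of the 39, against 6.76% of the other named genes. The highest CREB and CRTC factors were 13.3 and 8.27 for Chc, the clathrin heavy chain, and 6.02 and 7.10 for Rab5, a GTPase of early endosomes. They were 5.58 and 3.57 for Rab11, a GTPase of recycling endosomes, 6.47 and 5.87 for the scaffold kinase CASK, and 7.70 and 4.86 for spin, a late endosomal transporter.

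Of 22 genes of synapse growth around gbb, wit and hiw, 10 had a CREB site (45.5%, against 32.6% of the other named genes). A CREB/CRTC site was named for 7 (31.8%, against 17.9%). Peaks of H3K9Ac were named for 19 (86.4%, against 65.7%) and of H4K16Ac for 18 (81.8%, against 76.1%). The increased lists held 10 for H3K9Ac (45.5%, against 22.6%) and 6 for H4K16Ac (27.3%, against 16.9%). Of the 22 genes, 6 had both a CREB/CRTC site and an increased region, against 6.76% of the other named genes. The BMP type I receptor gene tkv had a CREB factor of 15.2 and a CRTC factor of 8.98 and was in the increased H4K16Ac list. Dad, the inhibitory Smad of the same pathway, had factors of up to 11.8 and 5.57 and was in both increased lists. The receptor gene put (punt) had 8.20 and 4.76, with an H3K9Ac peak of 11.7, and was in the increased H3K9Ac list. By contrast, the receptor genes sax and babo and the Smad genes Mad and Med had no CREB or CRTC site. They were in neither increased list. Outside the BMP receptors and Smads, the RNA-binding protein gene Fmr1 had 12.5 and 5.97 and was in the increased H4K16Ac list. wnd, the kinase that hiw restrains, had 7.38 and 5.01, the actin regulator ena had 4.79 and 3.86, and both were in the increased H3K9Ac list.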

How the data were processed

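Per the labels and the study's methods, the authors mapped ChIP-seq reads to dm3, called peaks against input with both PICS and ERD, and kept the regions that both algorithms called. For CREB and CRTC the methods describe replicated MiSeq libraries, whereas the labels name single SOLiD libraries, so the deposited site lists may differ from the sites of the paper. The deposited site lists give the false discovery rate of the PICS peak caller and an enrichment factor, the ratio between ChIP and background reads, which the authors computed. The deposited peak tables give the authors' PICS score, its false discovery rate and the distance from the peak centre to a transcript. The longest transcript is named for each peak, so a window called intronic or far from the TSS can lie at another start site. Each peak table is 3 genome-wide runs of rows with no library name, and they were not assigned to libraries. The increased lists also hold the authors' mean fold, its SD and a p-value, which were not used. They are longer than the sets of increased regions in the paper and may differ from them. Decreased regions are not analysed here.

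Genes were matched by symbol, and RefSeq (Release 6) served for names only. Peak windows were 400 bp around the centre, and non-overlapping windows were chosen by score within each gene. A TSS was near at 500 bp or less from the window. Sites within 200 bp were shared. The members and the further lists were chosen with earlier results of these data known. All members are accounted for, those with a CREB/CRTC site, those in an increased list and those in no list in detail. Genes of further lists are named when they have both a CREB/CRTC site and an increased region. Groups were taken from the labels. Values were compared as counts and medians with no test, since the tables hold no counts per library and no depth. Functions were tested on simulated data. Python 3.11.15, pandas 2.3.3, numpy 2.4.6 and matplotlib 3.10.9 were used.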

Additional observations from a re-analysis of the deposited data

How the results depend on the processing

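Of 35 alternatives for 15 results, 28 left the value within the limits set for it. The limit was a factor of 1.5 for a count and the 95% interval for a median or share. These limits are wide: CREB sites within 500 bp of a TSS were named for 12 genes instead of 17, which counted as within them. Matching by older symbols changed no count. With an enrichment factor of at least 5, 10 synaptic genes had a CREB site (against 21.2% of other named genes) and 5 had a CRTC site (against 9.77%). With H4K16Ac windows required in all 3 runs of rows, 12 genes had a window, against 41.6%. With 1 value for each non-overlapping window, the median H3K9Ac score was 2.90, against 2.45, and the median H4K16Ac score was 2.19, against 2.22, so that the order of the H4K16Ac medians was not stable. Naming increased regions by the peak table added lap and removed Rim for H3K9Ac and added nwk for H4K16Ac. Leaving out unc-13, or unc-13, cpx and shi, was chosen after seeing the data. The share of windows within 500 bp of a TSS was then as high as 79.4% for H3K9Ac and 65.6% for H4K16Ac, both above the other genes. No paired analysis was possible because the tables hold no column or row label for single libraries, and no replicate could be left out for the same reason. Depth is unknown, so a gene in no list cannot be called free of the mark or factor.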
